A study of Mus musculus with 33 samples.

Results

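The 38 Hox genes described here are homeobox genes of the Hoxa, Hoxb, Hoxc and Hoxd clusters. They were chosen by gene symbol among the 35349 gene symbols of a count table from whole embryonic mouse kidneys. In the mouse genome build GRCm38 the Hoxa cluster spans 98.5 kb on chromosome 6 (chr6:52162417-52260880) and gave 10 genes. The Hoxb cluster spans 173.9 kb on chromosome 11 (chr11:96194316-96368256) and gave 10 genes. The Hoxc cluster spans 115.8 kb on chromosome 15 (chr15:102921103-103036852) and gave 9 genes, and the Hoxd cluster spans 96.8 kb on chromosome 2 (chr2:74668310-74765142) and gave 9 genes.

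Hox genes encode homeodomain transcription factors that give cells their position along the head-to-tail axis. Within a cluster the genes are numbered by paralog group, and low-numbered genes are switched on earlier and further toward the head than high-numbered ones. In the mouse kidney the Hox11 genes Hoxa11, Hoxc11 and Hoxd11 act together in the metanephric mesenchyme, where their proteins work with Eya1 and Pax2 to switch on Six2 and Gdnf. The Hox10 genes are known for patterning the renal stroma, and Hoxb7 is known for its expression in the ureteric bud.

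The samples were kidneys of Six2 knockout, Six2 heterozygous and wild-type mice, sequenced as RNA. Six2 is a homeodomain factor that keeps nephron progenitors undifferentiated. The E11.5 (embryonic day 11.5) specimens were 5 knockout, 5 heterozygous and 6 wild-type embryos, and the E15.5 specimens were 4 heterozygous and 4 wild-type. There were 33 libraries in all, 17 at E11.5 and 16 at E15.5, and runs of the same specimen were summed to give 24 specimens. The Six2 allele, the mouse strain and whether a specimen is a pool are not given in the sources used here. The p-values therefore set group differences only against the variation between specimens. E11.5 specimens are called embryos for short.

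Library totals ran from 10.82 to 42.07, in units of 1e+06 counts. Ribosomal RNA genes took 9.59% to 21.9% of the counts in 6 libraries, all from batch 1 at E11.5 (1 knockout, 2 heterozygous and 3 wild-type), and 0.637% to 1.24% in the others. Here and below these are 359 symbols, mainly those annotated as ribosomal RNA. Where present, Yam1, Lars2, Gm15564, Mir6236, Gm23935 and Gm26917 were added by hand as symbols that hold ribosomal RNA sequence. Levels are given as CPM (counts per 1e+06 counts) on scaled library sizes. Levels of different genes are compared only as CPM per kb of the length in the table. The same batch numbers occur at both stages, but the labels do not say whether a number means the same sequencing run at both. The stage comparison has no batch term, and stage and sequencing run therefore cannot be told apart.

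Six2 was read first, as a check on the labels. It had 0.666, 0.291, 0.493, 0.449 and 0.465 CPM in the 5 knockout embryos, 14.1, 13.9, 17.0, 9.90 and 10.6 CPM in the 5 heterozygous embryos and 33.1, 30.5, 22.1, 19.5, 20.1 and 24.9 CPM in the 6 wild-type embryos. At E15.5 it had 5.69, 6.23, 6.19 and 6.51 CPM in heterozygous kidneys and 11, 12.8, 11 and 11.9 CPM in wild-type kidneys. No specimen went against its label, and the groups of a stage did not overlap.

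In wild-type kidneys the Hox10 genes stood at the top of the family at E11.5, and a different set stood at the top at E15.5. At E11.5 Hoxa10 was highest at 46.1 ± 7.19 CPM per kb (SD, n = 6), and its range did not overlap that of the next gene, Hoxd10, at 26.1 ± 5.95 CPM per kb. Hoxc10 at 22.2 ± 3.77, Hoxa11 at 21.7, Hoxb6 at 19.4 ± 3.49 and Hoxa9 at 18.8 ± 2.82 CPM per kb came next, and from Hoxd10 downward every gene's range overlapped that of its neighbour in the order. At E15.5 Hoxd8 was highest at 34.1 ± 1.64 CPM per kb (SD, n = 4), before Hoxa10 at 30.2 ± 1.44 and Hoxb7 at 25.6 ± 0.521 CPM per kb. Those genes did not overlap each other or Hoxb6 at 18.8 ± 0.442 CPM per kb, whereas Hoxb6, Hoxd9 (18.7 ± 0.634 CPM per kb) and Hoxb9 (18 ± 0.727 CPM per kb) overlapped one another in that order.

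**Figure D1:**
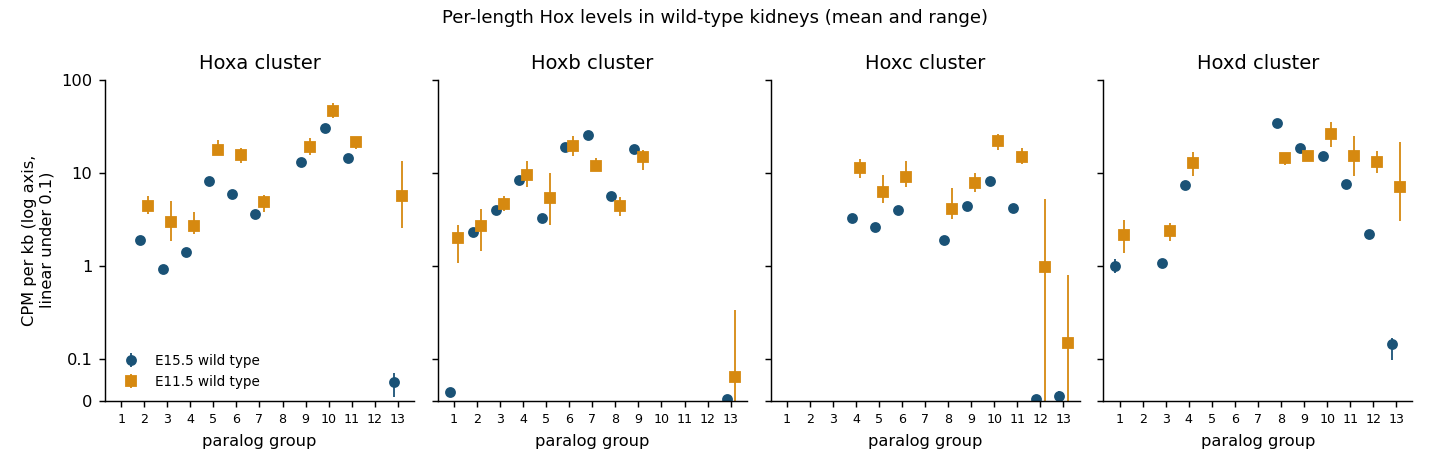
Per-length level of each Hox gene in wild-type kidneys (vertical axis, CPM per kb, logarithmic above 0.1 and linear below) against its paralog group (horizontal axis), with 1 panel per cluster; circles are E15.5 (n = 4), squares are E11.5 (n = 6) and bars span the lowest to the highest specimen. Hoxa10 tops the E11.5 order at 46.1 CPM per kb and Hoxd8 the E15.5 order at 34.1 CPM per kb.

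Within each cluster the leading genes were of the posterior or middle groups. At E11.5 they were Hoxa10, Hoxa11 and Hoxa9, then Hoxb6, Hoxb9 and Hoxb7, then Hoxc10, Hoxc11 and Hoxc4, and finally Hoxd10, Hoxd9 and Hoxd11. At E15.5 they were Hoxa10, Hoxa11 and Hoxa9, then Hoxb7, Hoxb6 and Hoxb9, then Hoxc10, Hoxc9 and Hoxc11, and finally Hoxd8, Hoxd9 and Hoxd10. The lowest levels in wild-type kidneys at E11.5 belonged to Hoxb13, Hoxc13 and Hoxc12, which had means of 0.057, 0.148 and 0.97 CPM per kb, and each of these means came almost wholly from the same embryo, described with the group 13 genes.

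The clusters took different shares of the summed per-length Hox level. The Hoxb cluster took 15.2 ± 1.01% in knockout, 17.4 ± 1.01% in heterozygous and 18.6 ± 1.47% in wild-type kidneys at E11.5. The Hoxd cluster took 31.0 ± 1.71% in knockout, 27.4 ± 0.849% in heterozygous and 27.0 ± 2.36% in wild-type kidneys. The Hoxa share averaged 35.2%, 35.8% and 35.2% in that order of genotypes, and the Hoxc share 18.6%, 19.4% and 19.2%. The knockout mean was thus lower for Hoxb and higher for Hoxd, with ranges of 14% to 16.5% in knockouts against 16.4% to 20.9% in wild types for Hoxb, and of 29.0% to 33.0% in knockouts against 24.6% to 31.3% in wild types for Hoxd, so that both pairs of ranges overlapped. At E15.5 Hoxb took 30.8 ± 0.553% in heterozygous and 30.6 ± 0.311% in wild-type kidneys.

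Promoters of 22 of the Hox genes, as 24 windows of 250 bases before to 50 bases after a gene's start, were present in RefSeq's table for GRCm38.p6. Their median GC content was 57.6%, against 52.7% over all 32851 windows, and their median number of CpG dinucleotides was 14.5, against 7.0. The windows of Hoxb1 and Hoxb8, which fell in the knockout, and of Hoxd3, which rose, are shown 5′ to 3′ to set promoters of Hox genes that changed in opposite directions beside each other. Capitals mark the match to the Pbx-Hox motif TGATNNAT, searched on both strands.

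Hoxb1: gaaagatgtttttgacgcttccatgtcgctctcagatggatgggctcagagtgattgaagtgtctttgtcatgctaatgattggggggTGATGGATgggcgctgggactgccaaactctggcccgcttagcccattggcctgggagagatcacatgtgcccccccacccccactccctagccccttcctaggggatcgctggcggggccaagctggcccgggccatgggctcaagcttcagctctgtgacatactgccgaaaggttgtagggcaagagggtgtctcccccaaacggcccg
Hoxb8: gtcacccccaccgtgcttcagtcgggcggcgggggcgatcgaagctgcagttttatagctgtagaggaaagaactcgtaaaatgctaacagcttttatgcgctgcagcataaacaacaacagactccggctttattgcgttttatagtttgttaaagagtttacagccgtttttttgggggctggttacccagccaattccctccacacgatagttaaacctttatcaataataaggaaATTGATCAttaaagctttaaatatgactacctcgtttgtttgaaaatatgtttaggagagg
Hoxd3: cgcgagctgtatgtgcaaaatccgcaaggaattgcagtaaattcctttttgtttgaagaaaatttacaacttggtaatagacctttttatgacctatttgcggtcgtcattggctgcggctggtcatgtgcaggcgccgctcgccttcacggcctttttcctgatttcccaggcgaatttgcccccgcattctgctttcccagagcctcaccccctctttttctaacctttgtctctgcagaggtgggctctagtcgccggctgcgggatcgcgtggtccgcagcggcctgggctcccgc

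The Hoxb1 window is chr11:96365508-96365807, the Hoxb8 window chr11:96281655-96281954 and the Hoxd3 window chr2:74711743-74712042, all on the plus strand. The Hoxb1 match begins 162 bases before the start of the gene, and the Hoxb8 match, which lies on the minus strand, begins 11 bases before it. TGATNNAT was found in 4 of the 24 Hox windows (16.7%) and in 8.8% of all windows. The other 2 of those 4 windows belong to Hoxa2 and Hoxd11, which were not called in the knockout, and neither window of Hoxa10, which fell, held a match. The motif TCANGTTTC of Six-family factors was found in 0 of the 24 Hox windows and in 1.1% of all windows, and the Meis-Pknox motif TGACAG in 2 of 24 (8.3%) and in 19.2% of all windows. The posterior Hox motif TTTATNG was in 2 of 24 (8.3%) and in 10.9% of all windows, and the TATA box TATAAA in 4 of 24 (16.7%) and in 13.6%. These are matches of letters in short windows and not measured binding sites.

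Knockout and wild-type kidneys at E11.5 were compared to read the loss of both Six2 copies. Most Hoxb genes were lower in the knockout, led by Hoxb1 at 16.4% of the wild-type level, while Hoxd3 was higher. Of the 38 genes, 35 passed the filter on low counts, all but Hoxb13, Hoxc12 and Hoxc13. By edgeR's quasi-likelihood test with Benjamini-Hochberg adjustment at 0.05, 7 fell and 1 rose, which is 22.9% of those tested, where 7.09% of all 16141 genes tested were called in either direction (4.03% lower and 3.06% higher). The median log2 fold change of the 35 genes was -0.17, against -0.00 over all genes, and 26 of the 35 were below zero, against 50.5% of all genes. In bulk kidneys fewer cells of a type and less RNA per cell cannot be told apart.

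The clusters did not move alike. In the Hoxb cluster 6 of 9 tested genes fell and all 9 were below zero, with a median log2 fold change of -0.51. In the Hoxa cluster 1 of 10 fell, with a median of -0.09. In the Hoxc cluster 0 of 7 were called, with a median of -0.25 and 6 of 7 below zero. In the Hoxd cluster 1 of 9 rose, with a median of 0.14 and 3 of 9 below zero. The 9 Hoxb genes were also all below zero within batch 1 alone, with a median of -0.53, within batch 2 alone, with a median of -0.25, and without the 6 libraries of high ribosomal content, with a median of -0.37. Those 6 libraries hold every batch 1 wild type, so the last setting kept wild types of batch 2 alone and was not independent of batch 2. Within batch 1 ribosomal genes took 16.1% to 21.9% of counts in wild types and 0.637%, 9.59% and 0.811% in knockouts. Genotype and ribosomal content thus largely went together there. With the title prefix as the block in place of batch 8 of 9 were below zero, with a median of -0.48. Most knockout embryos had a prefix that no other genotype had, so genotype and prefix largely went together. That setting thus rests on the few knockouts that shared a prefix with wild types.

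**Figure D2:**
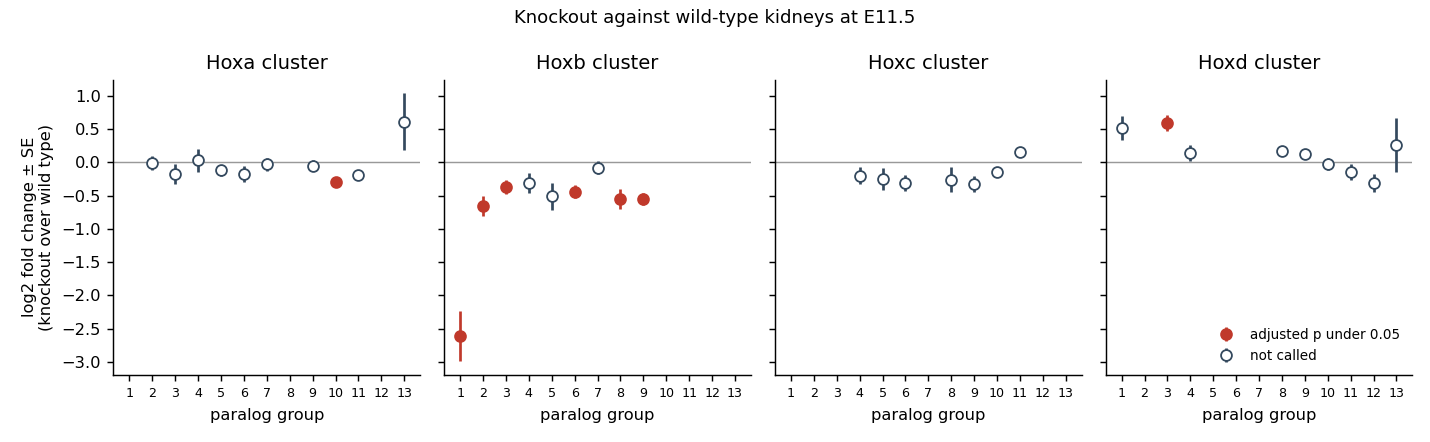
Log2 fold change of knockout over wild-type kidneys at E11.5 (vertical axis, bars are SE) for each tested Hox gene by paralog group (horizontal axis), with 1 panel per cluster; filled red points have an adjusted p under 0.05 by edgeR. The 9 Hoxb points lie below zero, from -2.61 for Hoxb1 to -0.08 for Hoxb7, and Hoxd3 lies at 0.59.

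Hoxb1 (chr11:96365752-96368256), the gene that marks a segment of the hindbrain and lies at the head-side end of its cluster, changed most. It had 1.84, 0.387, 0.432, 0.168 and 0.930 CPM in the 5 knockout embryos, 3.28, 3.45, 3.85, 2.79 and 3.67 CPM in the 5 heterozygous embryos and 2.51 to 6.44 CPM (median 4.90) in the 6 wild-type embryos. Every knockout embryo was below every embryo of the other genotypes. The log2 fold change was -2.61 ± 0.38 (SE, edgeR adjusted p = 0.000326), and the knockout values rest on 36, 4, 7, 3 and 16 counts. Within batch 1 it was -2.50 ± 0.43 (edgeR adjusted p = 0.00953) and within batch 2 -2.73 ± 0.58 (edgeR adjusted p = 0.0589). Its CPM varied most of all tested Hox genes among knockout embryos, with a coefficient of variation of 89.2%, against a median of 14.5% for the Hox genes and 14.9% for all genes.

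The other genes at the head-side end of the Hoxb cluster, Hoxb2 (chr11:96350525-96354012) and Hoxb3 (chr11:96323326-96347930), which act in the hindbrain and branchial region, fell less. Hoxb2 had 5.48, 4.75, 3.76, 7.29 and 7.15 CPM in knockout embryos, against 5.1 to 14.2 CPM (median 8.75) in wild-type embryos. The knockout values lay in the lower part of the wild-type range or below it, and the log2 fold change was -0.66 ± 0.15 (SE, edgeR adjusted p = 0.0109). Hoxb3 had 14.3, 13.5, 12.9, 16.7 and 18.2 CPM in knockout embryos, against 16.5 to 23.8 CPM (median 18.9) in wild-type embryos. The 3 lowest knockout embryos were below all wild types and the other 2 overlapped them, with a log2 fold change of -0.37 ± 0.10 (SE, edgeR adjusted p = 0.0375). Exon bases are shared with the antisense gene Hoxb3os over 52.9% of Hoxb3 and 27.3% of Hoxb2, and Hoxb3os itself had a log2 fold change of -0.75 ± 0.28 (edgeR adjusted p = 0.12). Whether the counts used strand is not stated, so reads of the overlapping genes cannot be told apart.

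The middle and posterior Hoxb genes Hoxb6, Hoxb8 and Hoxb9, which pattern the trunk skeleton, fell by about the same amount and share no exon bases with another gene of the table. Hoxb6 (chr11:96292476-96301569) had 32.0, 27.4, 26.6, 26.6 and 29.5 CPM in knockout embryos, against 29.9 to 49.4 CPM (median 36.3) in wild-type embryos. Only knockout embryo 1 reached into the wild-type range, and the log2 fold change was -0.44 ± 0.10 (SE, edgeR adjusted p = 0.0146). Hoxb8 (chr11:96281905-96285315) had 8.76, 5.81, 7.71, 6.67 and 10.6 CPM in knockout embryos, against 9.11 to 14.4 CPM (median 12.1) in wild-type embryos. Here knockout embryo 5 alone overlapped the wild types, and the log2 fold change was -0.55 ± 0.15 (SE, edgeR adjusted p = 0.0363). Hoxb9 (chr11:96271457-96276595) had 33.9, 28.0, 27.6, 21.4 and 24.2 CPM in knockout embryos, against 27.9 to 45.2 CPM (median 39.9) in wild-type embryos. The ranges overlapped, and the log2 fold change was -0.55 ± 0.09 (SE, edgeR adjusted p = 0.000904), with -0.53 within batch 1 and -0.54 within batch 2. For Hoxb8 the batches differed more, with -0.79 within batch 1 and -0.25 within batch 2.

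The remaining tested Hoxb genes did not pass the test. Hoxb4 was at -0.31 ± 0.15 and Hoxb5 at -0.51 ± 0.20 on the log2 scale, with edgeR adjusted p of 0.246 and 0.151. Hoxb7 (chr11:96286623-96290162), the ureteric bud gene, had 18.3, 15.1, 15, 19.6 and 18.2 CPM in knockout embryos, against 16.1 to 22.6 CPM (median 17.9) in wild-type embryos. The groups overlapped, and the log2 fold change was -0.08 ± 0.10 (SE, edgeR adjusted p = 0.725).

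Hoxd3 (chr2:74711927-74748442), which acts in the upper vertebral column, was the only Hox gene that rose. It had 15.9, 12.6, 14.3, 15.3 and 17.5 CPM in knockout embryos, 9.06, 9.87, 11.2, 11.6 and 10.6 CPM in heterozygous embryos and 7.84 to 12.3 CPM (median 10.2) in wild-type embryos. Every knockout embryo was above every embryo of the other genotypes, and the log2 fold change over wild type was 0.59 ± 0.12 (SE, edgeR adjusted p = 0.00421), a 1.51-fold level. It was 0.48 ± 0.16 within batch 1 and 0.75 ± 0.17 within batch 2. The gene shares 53.1% of its exon bases with Gm28230 on the same strand, which had a log2 fold change of 0.31 ± 0.17 (edgeR adjusted p = 0.339). Hoxd1 of the same cluster was at 0.51 ± 0.18 on the log2 scale without passing the test (edgeR adjusted p = 0.108).

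**Figure D3:**
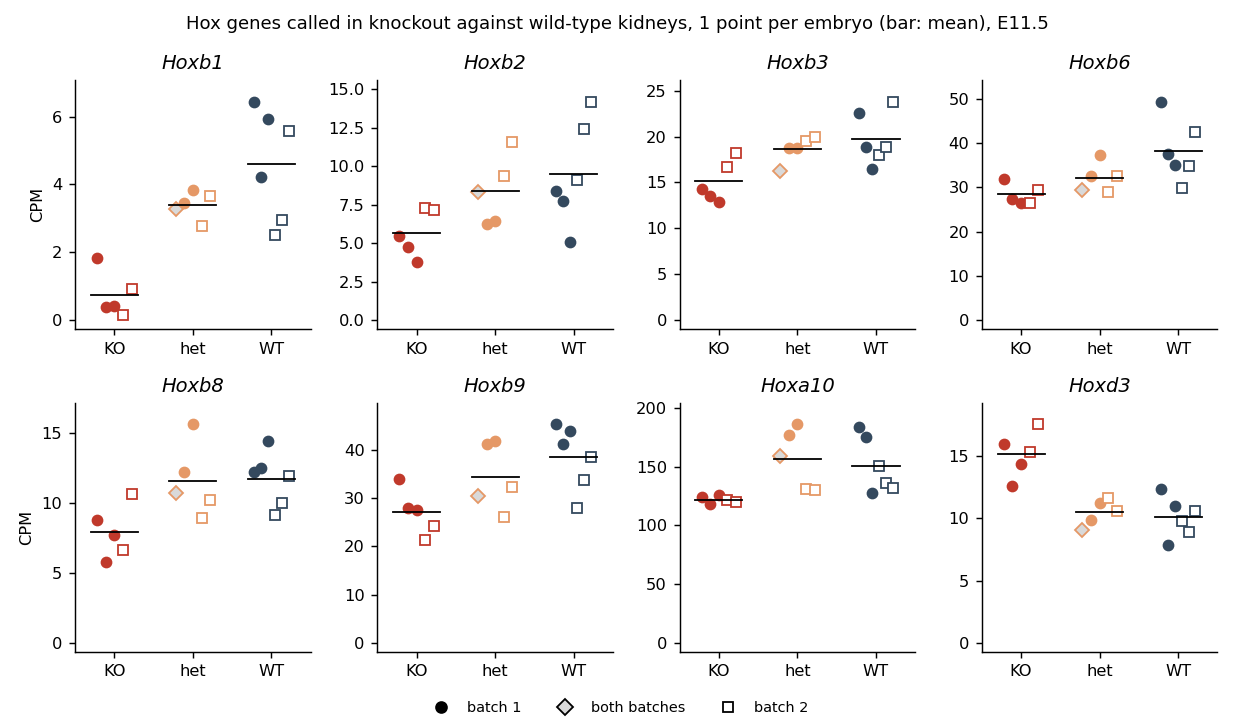
CPM (vertical axis, from 0) of the 8 Hox genes called in knockout against wild-type kidneys at E11.5, with 1 point per embryo and the group mean as a bar; KO is knockout (n = 5), het heterozygous (n = 5) and WT wild type (n = 6), and marker shape gives the batch. The knockout points lie apart from the wild-type points for Hoxb1, Hoxa10 and Hoxd3 and overlap them for the others.

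Among the Hox10 genes, which pattern the renal stroma and the lumbar vertebrae, Hoxa10 (chr6:52231197-52240854) fell. It had 124, 118, 126, 122 and 120 CPM in knockout embryos, 159, 177, 186, 131 and 130 CPM in heterozygous embryos and 128 to 184 CPM (median 143) in wild-type embryos. The knockout values were tightly grouped below both other genotypes, and the log2 fold change over wild type was -0.29 ± 0.07 (SE, edgeR adjusted p = 0.022). In all, 2 Hox genes had knockout values wholly below the wild types, Hoxb1 and Hoxa10, where 2.0% of all genes did, and 1 had them wholly above, Hoxd3, where 1.23% of all genes did.

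Hoxc10 and Hoxd10 did not pass the test. Hoxc10 (chr15:102966796-102971893) had 39.4, 40.0, 37.1, 36.5 and 39.0 CPM in knockout embryos, against 33.7 to 49.8 CPM (median 43.1) in wild-type embryos, and its log2 fold change was -0.14 ± 0.07 (SE, edgeR adjusted p = 0.311). Hoxd10 (chr2:74691924-74695105) had 51.3, 52.1, 46.2, 42.1 and 42.8 CPM in knockout embryos, against 34.9 to 63.7 CPM (median 46.2) in wild-type embryos, and its log2 fold change was -0.03 ± 0.09 (SE, edgeR adjusted p = 0.902). In both genes the knockout values lay inside the wild-type range. Their direction differed between batches, with Hoxc10 at -0.33 within batch 1 and 0.08 within batch 2, and Hoxd10 at -0.16 and 0.14.

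None of the Hox11 genes, the group upstream of Six2, passed the test in the knockout (0 of 3 by edgeR, with 2 at an unadjusted p under 0.05, and 0 of 3 by DESeq2). Hoxa11 (chr6:52242106-52245810) had 36.9, 36.6, 42.0, 43.4 and 54.3 CPM in knockout embryos, against 40.9 to 52.8 CPM (median 51.3) in wild-type embryos. The first 2 knockout embryos were below all wild types and the fifth was above them, and the log2 fold change was -0.19 ± 0.07 (SE, edgeR adjusted p = 0.139). Hoxc11 (chr15:102954427-102957708) had 29.6, 26.7, 30.1, 38.6 and 38.6 CPM in knockout embryos, against 25.5 to 37.8 CPM (median 28.9) in wild-type embryos, with a log2 fold change of 0.16 ± 0.06 (SE, edgeR adjusted p = 0.122). Hoxd11 (chr2:74679557-74687016) had 63.3, 59.9, 66.6, 41.0 and 54.5 CPM in knockout embryos, against 38.8 to 105 CPM (median 58.7) in wild-type embryos, with a log2 fold change of -0.15 ± 0.12 (SE, edgeR adjusted p = 0.551). The groups overlapped for all 3 genes, and Hoxd11 was at -0.43 within batch 1 and 0.21 within batch 2. Hoxa11 shares 35.0% of its exon bases with its antisense gene Hoxa11os, which was at -0.11 ± 0.08 on the log2 scale (edgeR adjusted p = 0.489).

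Of the Hox genes not named singly above, the Hoxa genes Hoxa2 to Hoxa7 and Hoxa9 lay between -0.17 and 0.03 on the log2 scale, and the Hoxc genes Hoxc4 to Hoxc9 between -0.32 (Hoxc9) and -0.20 (Hoxc4), none of them called. Hoxd8 came nearest to a call at 0.17 ± 0.05 (edgeR adjusted p = 0.0668), and Hoxd4, Hoxd9 and Hoxd12 were at 0.14, 0.13 and -0.31.

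The Hox11 share of the summed per-length Hox level was 13.2 ± 1.23% in knockout, 13.4 ± 0.294% in heterozygous and 12.9 ± 0.415% in wild-type kidneys at E11.5. The Hox10 share was 22.7 ± 0.744% in knockout, 25.4 ± 3.22% in heterozygous and 23.5 ± 2.38% in wild-type kidneys. The ranges of the 3 genotypes overlapped for both groups of paralogs. All 38 genes together came to 965 ± 31.6 CPM in knockout, 1025 ± 79.3 CPM in heterozygous and 1055 ± 126 CPM in wild-type kidneys (SD), with overlapping ranges of 924 to 1008 CPM in knockouts and 933 to 1289 CPM in wild types.

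Cell type markers were read in the same embryos. The 10 nephron progenitor markers, Six2 itself among them, summed to 244 to 321 CPM in knockout embryos, against 505 to 757 CPM in wild-type embryos, and 9 of 10 fell. Over all genes 4.03% were called lower and 3.06% higher. The 10 ureteric bud markers summed to 360 to 513 CPM in knockouts, against 300 to 415 CPM in wild types, with 3 higher and 1 lower. The 8 stromal markers summed to 2330 to 2799 CPM in knockouts, against 1681 to 2666 CPM in wild types, with 1 higher. The 8 muscle and axial mesoderm markers summed to 8.72 to 9.76 CPM in knockouts, against 21.2 to 43.4 CPM in wild types. Of the 4 tested, 1 was lower, Meox2, and 3 were not called, with a median log2 fold change of -0.15. The 8 neural markers summed to 80.6 to 116 CPM in knockouts, against 38.6 to 164 CPM in wild types, with 0 of 7 tested called by edgeR. The 6 gonad and adrenal markers summed to 48.3 to 70.8 CPM in knockouts, against 27.9 to 48.4 CPM in wild types, with 1 higher, Wnt4, which nephron precursors also express. No nephron progenitor, ureteric bud or stromal marker was at 0, or below 1 CPM, throughout the E11.5 embryos. The part of these shifts in the Hox values was not tested.

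The calls were uneven in how firmly they stood. Leaving out each knockout or wild-type embryo in turn kept Hoxb1, Hoxb2, Hoxb6, Hoxb9 and Hoxd3 called in all 11 fits. Hoxa10 lost its call without knockout embryo 2, 3 or 5, Hoxb3 without wild-type embryo 1, 2 or 6 or knockout embryo 1, 2, 3 or 4, and Hoxb8 without wild-type embryo 1, 3, 5 or 6 or knockout embryo 1, 2, 3 or 4, with edgeR adjusted p from 0.0502 to 0.104 in those fits. Without the 6 libraries of high ribosomal content, and so without any batch 1 wild type, only Hoxd3 was called (0.71 ± 0.15). In that fit Hoxb1 was at -2.44 ± 0.59 (edgeR adjusted p = 0.0625) and Hoxb9 at -0.58 ± 0.13 (edgeR adjusted p = 0.0512).

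The group 13 genes, which act at the tail end of the body, the distal limb and the cloaca, varied widely between embryos of the same genotype. Hoxa13 had 31.5, 37.2, 35.0, 12.4 and 12.2 CPM in knockout embryos, 13.6, 6.24, 7.62, 25.5 and 30.0 CPM in heterozygous embryos and 6.37 to 33.1 CPM (median 9.82) in wild-type embryos. Hoxd13 had 37.3, 42.4, 29.9, 10.3 and 10 CPM in knockout embryos, 10.5, 7.67, 8.72, 20.7 and 29.1 CPM in heterozygous embryos and 7.64 to 53.1 CPM (median 11.1) in wild-type embryos. Both were high in knockout embryos 1 to 3, heterozygous embryos 4 and 5 and wild-type embryo 3. Neither passed the test in the knockout, with log2 fold changes of 0.61 ± 0.43 for Hoxa13 and 0.26 ± 0.41 for Hoxd13 (SE, edgeR adjusted p of 0.472 and 0.793). Against heterozygotes the direction turned with the batch: Hoxa13 was at 1.92 ± 0.45 within batch 1 (edgeR adjusted p = 0.0292) and -0.88 ± 0.39 within batch 2 (edgeR adjusted p = 0.427), and Hoxd13 at 1.80 ± 0.51 and -0.90 ± 0.42. Heterozygotes against wild types turned too, with Hoxa13 at -0.96 ± 0.45 within batch 1 and 1.09 ± 0.35 within batch 2, and Hoxd13 at -1.35 ± 0.51 and 1.08 ± 0.37. Among wild-type embryos Hoxd13 had the highest coefficient of variation of the tested Hox genes, 99.6%.

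Other genes were high in many of the same embryos. Evx2, the homeobox gene beside Hoxd13, had 9.94, 10.6, 6.23, 0.729 and 0.814 CPM in knockout embryos, 1.37, 0.357, 0.618, 4.10 and 7.15 CPM in heterozygous embryos and 12.8 CPM in wild-type embryo 3, against at most 1.43 CPM in the other wild types. Isl1, a gene of the peri-cloacal mesenchyme and of motor neurons, had 103, 129, 99.5, 48.9 and 44.8 CPM in knockout embryos, 31.7, 27.7, 26.8, 48.9 and 75.6 CPM in heterozygous embryos and 99.7 CPM in wild-type embryo 3, against 24.8 to 41.2 CPM in the other wild types. Heterozygous embryo 4, high for Hoxa13 and Hoxd13, thus had no more Isl1 than knockout embryo 4. Not all cloacal markers followed these embryos: Pitx1 had 13.4, 4.17, 4.99, 4.26 and 6.86 CPM in knockout embryos and was highest in wild-type embryo 4, at 28.1 CPM. Krt5 had at most 0.41 CPM in knockout embryos and 0.0593 CPM in wild-type embryo 3. The 8 markers of cloaca, genital tubercle and hindgut summed to 56.1 to 137 CPM in knockouts, 29.3 to 85.4 CPM in heterozygotes and 30.5 to 108 CPM in wild types. Of those markers Cdx2 was at 0 counts in all 16 E11.5 embryos, and Cdx1 and Shh were below 1 CPM in every one. The 3 high knockout embryos were in batch 1 and the 2 high heterozygous embryos in batch 2. The part of such tissue in the group 13 values was not tested.

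Hoxc12, Hoxc13 and Hoxb13 were near 0 in all E11.5 embryos but 1. Wild-type embryo 6 had 5.47 CPM of Hoxc12 (116 counts), 1.98 CPM of Hoxc13 (42 counts) and 0.755 CPM of Hoxb13 (16 counts). In the other 15 E11.5 embryos the highest counts were 6 for Hoxc12, 2 for Hoxc13 and 3 for Hoxb13. That embryo also had 33.1 CPM of the skin keratin gene Krt5, against at most 3.2 CPM in any other, 14.8 CPM of the neural progenitor gene Sox2, against at most 4.10 CPM, and 9.72 CPM of Pax3, against at most 2.56 CPM. Its neural marker sum was 164 CPM, against 38.6 to 116 CPM in the others. Without this embryo 6 Hox genes were called in the knockout, with Hoxb3 and Hoxb8 lost.

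**Figure D4:**
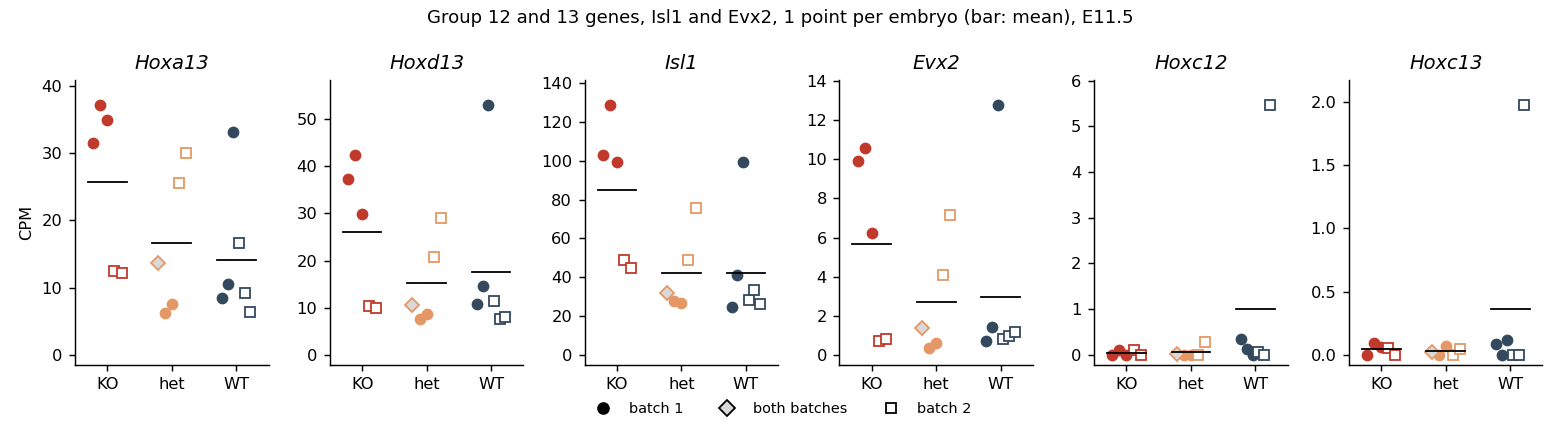
CPM (vertical axis, from 0) of Hoxa13, Hoxd13, Isl1, Evx2, Hoxc12 and Hoxc13 in E11.5 kidneys, with 1 point per embryo and the group mean as a bar; KO is knockout (n = 5), het heterozygous (n = 5) and WT wild type (n = 6), and marker shape gives the batch. Hoxa13, Hoxd13 and Evx2 are high in the same 6 embryos, Isl1 is high in 5 of them, and wild-type embryo 6 alone is high for Hoxc12 (5.47 CPM) and Hoxc13 (1.98 CPM).

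Heterozygous and wild-type kidneys at E11.5 were compared to read the loss of 1 Six2 copy. By edgeR's quasi-likelihood test 0 of 35 Hox genes passed, where 0.0681% of all genes did (0.0558% lower and 0.0124% higher), with 2 at an unadjusted p under 0.05 (Hoxb6 at -0.23 ± 0.10 and Hoxd8 at 0.13 ± 0.05 on the log2 scale), and DESeq2 also called 0. The log2 fold changes ran from -0.32 to 0.35 with a median of -0.09, against 0.01 over all genes, and 25 of 35 were below zero, against 46.9% of all genes. Six2 itself fell to 13.1 CPM on average in heterozygous kidneys, against 25.0 CPM in wild types. The Hox10 and Hox11 genes lay between -0.09 (Hoxc11) and 0.13 (Hoxc10), and Hoxb7 was at 0.18 ± 0.10 (edgeR adjusted p = 0.658). Hoxb1 was at -0.31 ± 0.32 (edgeR adjusted p = 0.817), with heterozygous embryos inside the wild-type range. The groups overlapped for all 35 Hox genes, where 0.229% of all genes were wholly lower and 0.204% wholly higher in heterozygotes.

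Knockout and heterozygous kidneys at E11.5 were compared for the loss of the second copy, with the same knockout embryos as above. In this comparison 4 of 35 Hox genes were called by edgeR (11.4%), 2 higher and 2 lower, where 3.69% of all genes were called (0.892% higher and 2.79% lower). Hoxb1 fell to 20.3% of the heterozygous level, with a log2 fold change of -2.30 ± 0.41 (SE, edgeR adjusted p = 0.00414). Hoxb9 fell by 0.40 ± 0.10 (edgeR adjusted p = 0.0327) and Hoxd3 rose by 0.52 ± 0.13 (edgeR adjusted p = 0.0301) on the log2 scale. Hoxc11, which overlapped between the groups, rose by 0.24 ± 0.06 (edgeR adjusted p = 0.0401). It averaged 28.8 CPM in knockouts and 24.5 CPM in heterozygotes within batch 1, and 38.6 CPM in knockouts and 33.3 CPM in heterozygotes within batch 2.

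Hoxa10 missed the threshold in this comparison at -0.28 ± 0.08 (edgeR adjusted p = 0.0603), although all knockout embryos were below all heterozygous ones. Hoxb1 and Hoxa10 were the 2 Hox genes wholly lower in knockouts, where 2.63% of all genes were, and Hoxd3 the 1 wholly higher, where 1.5% were. Hoxc10 was at -0.27 ± 0.08 (edgeR adjusted p = 0.0756), Hoxa11 at -0.25 ± 0.08 (edgeR adjusted p = 0.0925) and Hoxb7 at -0.26 ± 0.11 (edgeR adjusted p = 0.216) on the log2 scale. Hoxd10 was at -0.04 and Hoxd11 at -0.07. Hoxb1 lost its call in batch 2 alone (edgeR adjusted p = 0.137), without the libraries of high ribosomal content (edgeR adjusted p = 0.0635) and with the title prefix as the block (edgeR adjusted p = 0.058), at log2 fold changes of -2.52, -2.17 and -2.38. Leaving out each embryo in turn kept it called in all 10 fits, while Hoxd3 and Hoxb9 lost their call in 6 each and Hoxc11 in 9. The prefix setting again rests on the few knockouts that shared a prefix with another genotype.

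Heterozygous and wild-type kidneys were compared again at E15.5, where 33 Hox genes passed the filter. Hoxd12 (chr2:74675013-74677705), a gene of the distal limb and urogenital region, was the 1 Hox gene called by edgeR (3.0%), where 0.57% of all genes were called and 0.362% were lower. It had 3.87, 4.34, 3.98 and 4.28 CPM in heterozygous kidneys, against 5.33, 5.02, 5.89 and 5.93 CPM in wild-type kidneys. All heterozygous values were below all wild-type values, and the log2 fold change was -0.44 ± 0.08 (SE, edgeR adjusted p = 0.0258). The call was lost without wild-type specimen 1, 3 or 4 or heterozygous specimen 1, 2 or 3 (edgeR adjusted p from 0.0556 to 0.104) and in the batch 2 runs alone. At E11.5 the heterozygous effect on Hoxd12 was -0.15 ± 0.13 (edgeR adjusted p = 0.754), and the difference between stages of -0.24 ± 0.24 did not pass its own test (edgeR adjusted p = 1).

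The other Hox genes did not pass the test between heterozygous and wild-type kidneys at E15.5. Hoxc11 had 6.82, 8.18, 7.79 and 7.41 CPM in heterozygous kidneys, against 9, 8.73, 8.36 and 8.19 CPM in wild-type kidneys. Its groups also did not overlap, though their nearest values were close, but its log2 fold change of -0.19 ± 0.07 did not pass (edgeR adjusted p = 0.401). These were the 2 Hox genes with wholly lower heterozygous values, where 2.21% of all genes had them, and 0 had wholly higher ones, where 2.92% of all genes had them. The remaining Hox10 and Hox11 genes lay between -0.06 (Hoxd10) and 0.05 (Hoxa10) on the log2 scale, and Hoxb7 was at 0.04 ± 0.03.

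The difference of the heterozygous effects, E15.5 minus E11.5, was tested over all 24 specimens. By edgeR 0 of 35 Hox genes passed, with 0 at an unadjusted p under 0.05, where 0.00576% of all genes passed, and DESeq2 also called 0. The differences ran from -0.41 to 0.58 on the log2 scale, with SE from 0.11 (Hoxd9) to 1.09 (Hoxa13), so that the precision varied widely between genes. This model had no batch term, unlike that of the genotype comparisons at E11.5.

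E15.5 and E11.5 wild-type kidneys were compared to read the course of development, and here most of the family fell. By edgeR 26 of 35 tested Hox genes fell and 3 rose, 82.9% in all, where 52.5% of all 17362 genes tested were called (26.0% lower and 26.4% higher). The median log2 fold change of the Hox genes was -0.94, against -0.02 over all genes. In all, 25 Hox genes had E15.5 values wholly below the E11.5 values, where 19.9% of all genes did, and 3 had them wholly above, where 24.2% did.

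The clusters again differed. All 10 Hoxa genes fell, with a median log2 fold change of -1.03, and all 7 tested Hoxc genes fell, with a median of -1.23. In the Hoxd cluster 7 fell and 2 rose. In the Hoxb cluster 2 fell, 1 rose and 6 did not pass the test, with a median of -0.11. Those 6 were Hoxb2, Hoxb3, Hoxb4, Hoxb6, Hoxb8 and Hoxb9, at -0.19 to 0.28 on the log2 scale. The share of Hoxb in the summed per-length Hox level was 30.6 ± 0.311% at E15.5, against 18.6 ± 1.47% at E11.5, and that of Hoxc was 10.2 ± 0.205% at E15.5, against 19.2 ± 1.04% at E11.5.

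**Figure D5:**
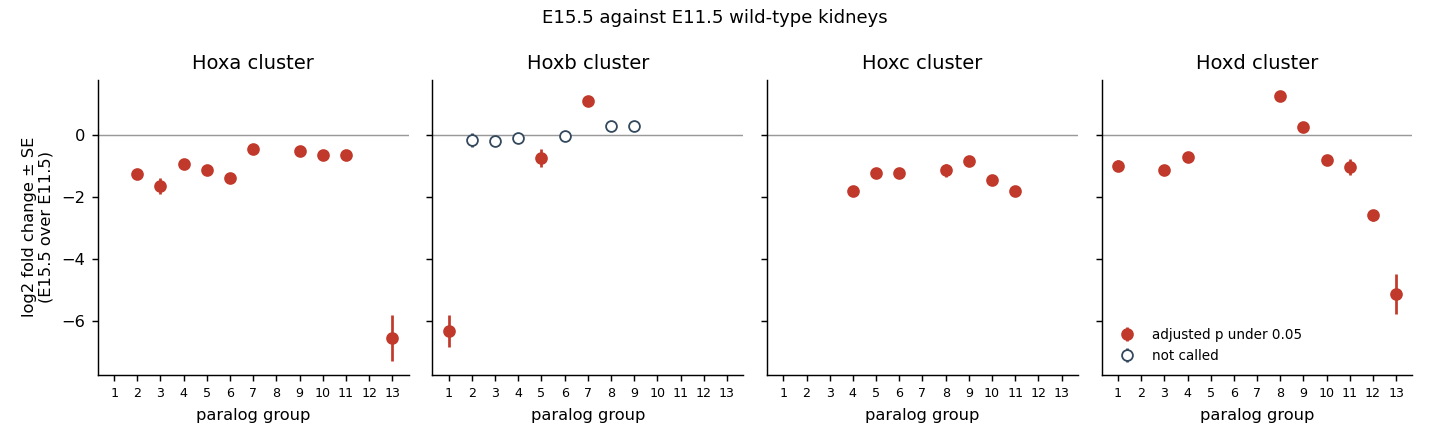
Log2 fold change of E15.5 over E11.5 wild-type kidneys (vertical axis, bars are SE) for each tested Hox gene by paralog group (horizontal axis), with 1 panel per cluster; filled red points have an adjusted p under 0.05 by edgeR. Hoxd8 (1.25), Hoxb7 (1.1) and Hoxd9 (0.27) lie above zero and are called, and Hoxa13, Hoxb1 and Hoxd13 lie below -5.

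The 3 genes that rose with stage were Hoxd8, Hoxb7 and Hoxd9. Hoxd8 (chr2:74704615-74707933), a gene of the trunk, had 96.6, 98.7, 89.3 and 90.7 CPM at E15.5, against 33.9 to 45.1 CPM (median 39.4) at E11.5, with a log2 fold change of 1.25 ± 0.10 (SE, edgeR adjusted p = 4.45e-10). Hoxb7 had 39.0, 40.3, 38.7 and 40.1 CPM at E15.5, against 16.1 to 22.6 CPM (median 17.9) at E11.5, with a log2 fold change of 1.1 ± 0.10 (SE, edgeR adjusted p = 2.2e-09). Hoxd9 had 39.2, 41.4, 38.4 and 40.6 CPM at E15.5, against 29.7 to 35.8 CPM (median 32.1) at E11.5, with a log2 fold change of 0.27 ± 0.08 (SE, edgeR adjusted p = 0.00744). The stages did not overlap for any of the 3 genes, and the Hoxd9 call was lost without E15.5 specimen 2 (edgeR adjusted p = 0.0599). Ureteric bud markers summed to 651 to 704 CPM at E15.5, against 300 to 415 CPM at E11.5, and their part in the Hoxb7 and Hoxd8 levels was not tested.

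The largest falls with stage were those of Hoxa13, Hoxb1 and Hoxd13, each at an end of its cluster. Hoxd1, also at an end of its cluster, fell less, by 0.99 ± 0.18 on the log2 scale. Hoxa13 had 0.0966, 0.0206, 0.165 and 0.164 CPM at E15.5, against 6.37 to 33.1 CPM at E11.5, with a log2 fold change of -6.57 ± 0.74 (SE, edgeR adjusted p = 1.21e-07). Hoxb1 had 0.0644, 0.0412, 0.0301 and 0.0595 CPM at E15.5, from 2 to 4 counts each, against 2.51 to 6.44 CPM at E11.5, with a log2 fold change of -6.34 ± 0.52 (SE, edgeR adjusted p = 1.02e-09). Hoxd13 had 0.386, 0.247, 0.406 and 0.416 CPM at E15.5, against 7.64 to 53.1 CPM at E11.5, with a log2 fold change of -5.14 ± 0.65 (SE, edgeR adjusted p = 7.13e-07). The 8 cloacal markers summed to 4.76 to 5.73 CPM in wild-type kidneys at E15.5, against 30.5 to 108 CPM at E11.5. Much of that sum was Isl1, with 0.0412 to 0.209 CPM at E15.5 and 24.8 to 99.7 CPM at E11.5. Of the 7 cloacal markers tested, 4 fell, 1 rose and 2 were not called, where 26.0% of all genes fell and 26.4% rose. The neural markers summed to 5.64 to 8.68 CPM at E15.5, against 38.6 to 164 CPM at E11.5, and the part of such tissue in these falls was not tested. The stages did not overlap for Hoxa13, Hoxb1 or Hoxd13. Hoxd12 had 5.33, 5.02, 5.89 and 5.93 CPM at E15.5, against 25.4 to 43.3 CPM at E11.5, with a log2 fold change of -2.59 ± 0.18. Hoxc4, a gene of the neck and upper trunk, had 9, 8.3, 8.19 and 8.48 CPM at E15.5, against 22.6 to 36.0 CPM at E11.5, with a log2 fold change of -1.81 ± 0.14.

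All Hox10 and Hox11 genes fell with stage, the Hoxc members most. On the log2 scale Hoxa10 fell by 0.66 ± 0.10, Hoxd10 by 0.82 ± 0.15 and Hoxc10 by 1.46 ± 0.15. Hoxa11 fell by 0.65 ± 0.08, Hoxd11 by 1.04 ± 0.26 and Hoxc11 by 1.80 ± 0.14. Hoxc11 averaged 8.57 ± 0.363 CPM at E15.5 and 30.2 ± 5.07 CPM at E11.5 (SD, n = 4 and 6), with no overlap. The Hox10 share of the summed per-length level was 19 ± 0.68% at E15.5 and 23.5 ± 2.38% at E11.5, and the Hox11 share 9.28 ± 0.163% at E15.5 and 12.9 ± 0.415% at E11.5. Hoxb5, at -0.74 ± 0.30 (edgeR adjusted p = 0.0433), lost its call in 7 of the 10 fits that left out 1 wild-type specimen, each E15.5 specimen and E11.5 specimens 1, 2 and 3.

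Genes that work with the Hox proteins were read from lists. Of the 9 TALE homeodomain cofactors, which bind DNA together with Hox proteins, 1 rose in knockout against wild-type kidneys and 0 fell: Pbx3 averaged 115 ± 9.43 CPM in knockouts and 86.7 ± 13.6 CPM in wild types (SD), with a log2 fold change of 0.38 ± 0.07 (SE, edgeR adjusted p = 0.00228). The list's median was 0.06, against -0.00 over all genes, of which 4.03% were called lower and 3.06% higher. Of the 11 partners and targets of Hox11 in the metanephric mesenchyme 6 fell and 0 rose, with a median log2 fold change of -0.78. This count includes Six2, the gene removed in the knockout. Beside Six2 those were Gdnf, the ligand that calls the ureteric bud (-1.02 ± 0.15), the zinc finger gene Sall1 (-1.05 ± 0.19), the integrin gene Itga8 (-0.93 ± 0.09), Osr1 (-0.94 ± 0.10) and the phosphatase and cofactor gene Eya1 (-0.78 ± 0.14). All 6 of these were also among the nephron progenitor markers.

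Of the other genes inside the clusters, mostly noncoding and antisense transcripts, 26 were tested in the knockout and 1 fell, the noncoding gene Gm53 of the Hoxb cluster, at -0.42 ± 0.11 on the log2 scale (edgeR adjusted p = 0.0255). Their median was 0.12, and 1 of 26 is near the 4.03% of all genes called lower. Of 18 tested upstream regulators of the clusters 1 rose, Gdf11, a secreted ligand that sets posterior Hox expression, at 0.18 ± 0.05 (edgeR adjusted p = 0.0379), with a list median of -0.05, where 3.06% of all genes were called higher. In knockout against heterozygous kidneys the same 6 Hox11 partners and targets fell, Six2 included, and Gdf11 rose. There 2.79% of all genes were called lower and 0.892% higher. In heterozygous against wild-type kidneys Six2 was the 1 gene of these 4 lists called at E11.5, and at E15.5 Six2 fell and Eya1 rose by 0.28 ± 0.03 (edgeR adjusted p = 0.00137). Both belong to the 11 Hox11 partners and targets. Over all genes 0.0681% were called at E11.5 and 0.57% at E15.5 in these heterozygous comparisons.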

How the data were processed

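The authors deposited raw read counts per gene symbol for 33 libraries. Per the submitters' processing notes STAR 2.4.0h1, featureCounts 1.4.6 and the build mm10 (GRCm38) were used. The annotation, strandedness and treatment of reads with several matches are not given in the sources used here. Per the labels' protocols the RNA came from snap-frozen whole kidneys.

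Runs of the same specimen were summed to 24 specimens, and 0 columns were left unused. Genes were filtered with filterByExpr (minimum count 10, total 15), scaled by TMM and tested with edgeR 4.0.16 in R 4.3.3 (quasi-likelihood, Benjamini-Hochberg at 0.05 over all genes tested). At E11.5 the model terms were genotype, sex and the labelled batch (0.5 for the heterozygous embryo run in both), which equals the replicate number in the E11.5 titles and so is the replicate block. Deviations of same-batch embryos from their group means correlated at 0.414 to 0.686 in all 6 checks between genotypes. At E15.5 they were genotype and sex, and for stage and the difference of effects group and sex over all 24. CPM were computed from the deposited counts on TMM-scaled sizes, and per-length levels divide these by the table's gene length in kb. Positions are GENCODE vM21. Promoters are RefSeq's.

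DESeq2 1.42.0 with its size factors, RLE scaling, no filter on low counts, other covariates, batches alone, ribosomal-poor libraries alone and each specimen left out were alternatives. The test was tried on simulated counts. The members and lists were chosen with earlier results of these data known. Values in full were given for Hox10 and Hox11 genes, Hoxb7, every Hox gene called between genotypes, the largest changes with stage and the highest levels in each cluster. Hoxd1, Hoxd4, Hoxd9 and the genes beside the group 13 values were named after their values were seen.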

Additional observations from a re-analysis of the deposited data

Results flagged for a closer look

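A gap test within groups of 4 to 6 specimens set 15 of 176 Hox gene and group combinations apart because 1 specimen lay far from the others. Chance alone sets apart about 1 in 20. By group these were at E11.5 0 of 35 for knockouts, 0 of 35 for heterozygotes and 9 of 38 for wild types, and at E15.5 3 of 34 for each genotype.

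In wild-type kidneys at E11.5, embryo 1 stood apart for Hoxa5 at 42.7 CPM, Hoxc5 at 29.5 CPM, Hoxc6 at 32.4 CPM and Hoxc8 at 19.7 CPM. Embryo 3 stood apart for Hoxd13 at 53.1 CPM and for Hoxa11 at 40.9 CPM. Embryo 6 stood apart for Hoxc12 at 5.47 CPM, Hoxc13 at 1.98 CPM and Hoxb13 at 0.755 CPM.

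At E15.5, heterozygous specimen 2 stood apart for Hoxa5 at 13.7 CPM, specimen 1 for Hoxa7 at 13.2 CPM and specimen 3 for Hoxd9 at 39.8 CPM. For Hoxa7 the other heterozygous specimens were all at 13.1 CPM. Wild-type specimen 3 stood apart for Hoxa10 at 91.8 CPM and Hoxb9 at 43.6 CPM, and wild-type specimen 2 for Hoxb5 at 8.26 CPM.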

How the results depend on the processing

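In knockout against wild-type kidneys 8 Hox genes were called, and the count was 8 under DESeq2, RLE scaling, no filter and sex left out. It was 2 with no replicate block, 6 in batch 1 alone (4 of the 8, with Hoxc10 and Hoxd1 new), 0 in batch 2 alone, 1 without libraries above 5% ribosomal counts (Hoxd3), 4 with the ribosomal share as a covariate (all among the 8), 4 with the title prefix as the block (Hoxb1 and Hoxb9, with Hoxc10 and Hoxd12 new), and 5 to 9 with 1 embryo left out. In knockout against heterozygous kidneys 4 were called, against 8 under DESeq2, 1 with no replicate block, 10 in batch 1 alone (2 of the 4), 0 in batch 2 alone, 1 without the ribosomal-rich libraries and 1 to 3 with 1 embryo left out. The heterozygous comparison at E11.5 called 0 under every alternative, and at E15.5 it called 1, against 0 in the batch 2 runs alone and 0 to 1 with 1 specimen left out. Over all genes the heterozygous comparison called 1 to 43 under the alternatives at E11.5. At E15.5 it called 104 of all genes, against 43 in the batch 2 runs alone and 66 to 79 with 1 specimen left out. The stage comparison called 27 to 30, and 7311 to 9641 over all genes. The knockout counts moved over all genes too. In knockout against wild-type kidneys 1144 were called, against 1436 under DESeq2, 439 with no block, 405 in batch 1 and 202 in batch 2. Without ribosomal-rich libraries the count was 349, with the covariate 751 and with the prefix 492. Prefix and genotype largely went together, as most knockouts had a prefix of their own. In knockout against heterozygous kidneys 595 were called, against 1009 under DESeq2, 154 with no block, 1033 in batch 1 and 70 in batch 2. The cause of these shifts was not tested.

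Reversals are listed for the Hox10 and Hox11 genes and Hoxb7. In knockout against wild-type kidneys Hoxd10 was at 0.00 without the block, 0.14 in batch 2, 0.09 without ribosomal-rich libraries, 0.06 with the covariate and -0.08 to 0.04 with 1 embryo left out. Hoxc10 was at 0.08 and Hoxd11 at 0.21 in batch 2, Hoxd11 at 0.12 without ribosomal-rich libraries, and Hoxb7 at 0.13 with the prefix. In knockout against heterozygous kidneys Hoxd10 was at 0.02 without the block, 0.07 in batch 2 and 0.01 without ribosomal-rich libraries, Hoxd11 at 0.01, 0.16 and 0.07 in the same order, and Hoxb7 at 0.08 with the prefix. In heterozygous against wild-type kidneys at E11.5 Hoxa10 was at 0.01 without the filter, 0.04 without sex, 0.16 in batch 1, 0.05 with the prefix and -0.05 to 0.05 with 1 embryo left out. Hoxd10 was at -0.01 without the block and -0.07 to 0.08 with 1 left out, and Hoxa11 at -0.01 with the prefix and -0.00 to 0.10 with 1 left out. Hoxd11 was at 0.05 in batch 2, 0.05 without ribosomal-rich libraries, 0.00 with the covariate, 0.19 with the prefix and -0.18 to 0.02 with 1 left out. At E15.5 Hoxc10 was at 0.07 and Hoxa11 at -0.01 in the batch 2 runs, and at -0.10 to 0.05 and -0.01 to 0.05 with 1 left out. The Hox sum was also taken over counts without ribosomal RNA genes, and there without TMM scaling. At E11.5 it was 1040 CPM in knockouts, 1049 CPM in heterozygotes and 1087 CPM in wild types. At E15.5 it was 768 CPM in heterozygous and 774 CPM in wild-type kidneys. Hoxb1 in knockouts rests on 3 to 36 counts.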

Other observations

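The cofactors of the Hox proteins also fell with stage in wild-type kidneys. Of the 9 TALE genes 8 fell and 1 rose at E15.5 against E11.5 by edgeR, with a median log2 fold change of -1.04, against -0.02 over all genes, of which 26.0% fell and 26.4% rose. Meis3 fell most, with 13.3 CPM at E15.5 and 88.5 CPM at E11.5 (log2 fold change -2.68 ± 0.14), and Meis1 and Meis2 fell by 1.4 and 1.26 on the log2 scale. Pknox1 rose by 0.29 ± 0.06. Of the 11 Hox11 partners and targets 7 fell and 1 rose. The gene that rose was Itga8, an integrin gene of the mesenchyme, with 204 CPM at E15.5 and 116 CPM at E11.5.

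Of 26 other genes tested inside the clusters 19 fell with stage and 0 rose, with a median of -1.26. Hotair, a noncoding RNA of the Hoxc cluster, had 0.319 CPM at E15.5 and 1.56 CPM at E11.5, and Evx2 had 0 counts in every E15.5 specimen. Of 19 regulators of the clusters 9 fell and 2 rose, with a median of -0.29, so that the share called was near the 52.5% of all genes. The Polycomb gene Cbx2 fell by 1.12 ± 0.06 and the methyltransferase gene Kmt2a by 1.02 ± 0.17 on the log2 scale, while Bmi1 rose by 0.46 ± 0.17 and Eed by 0.29 ± 0.11. Stage and sequencing run cannot be told apart in these values either.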
